A study of Rattus norvegicus with 13 samples.

Results

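The genes followed here move iron into, within and out of the cell. They were 8 genes given by symbol (Slc40a1, Tfrc, Slc11a2, Slc39a14, Fth1, Cp, Lcn2 and Ireb2), and a gene counted as found where at least 1 probe set was annotated to it alone. By that rule 7 of the 8 genes were found, with 14 probe sets, out of 14217 genes and 20826 probe sets with a single gene in the whole series. The exception was Fth1, ferritin heavy chain, whose probe set is also annotated to a Fth1 pseudogene, so that no value is given for it. The set was drawn up because the signal of Slc40a1 was lower with IL-1β, so the difference between IL-1β alone and untreated cultures is described for all members without a test.

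The cells were articular chondrocytes, the cells of joint cartilage, taken from femoral head cartilage of male Wistar rats aged 2 months. Cells of 1 pool at second passage were split into flasks, and RNA of each flask was hybridized to its own Affymetrix whole-genome rat array. Values of 13 arrays in 4 groups were used. The cultures given both agents (n = 4) had 20 mM glucosamine for 20 hours and 10 ng/ml IL-1β, an inflammatory cytokine, for the last 14 of these hours, so that glucosamine was present for 6 hours before the cytokine. The IL-1β cultures (n = 4) had 10 ng/ml IL-1β alone for 14 hours, the glucosamine cultures (n = 2) had 20 mM glucosamine alone for 20 hours, and the untreated cultures (n = 3) had neither. Because all flasks came from the same pool, the p-values measure the spread between flasks of 1 pool and not that between animals, and both doses are far above those of a joint.

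Vertebrate cells take up transferrin-bound iron through the transferrin receptor and free ferrous iron through the metal transporters Slc11a2 and Slc39a14. Iron that is not used is stored in ferritin, and the only known exporter of iron is ferroportin, encoded by Slc40a1, which works with ferroxidases such as ceruloplasmin. Iron regulatory proteins bind elements in the mRNAs of the transferrin receptor, Slc11a2, ferritin and ferroportin when iron is scarce, and during inflammation many cell types withhold iron, among other means through lipocalin 2, which captures the siderophores with which bacteria collect it.

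Signals are the deposited linear intensities, and log2 fold changes were computed after raising values under 5.71, the 25th percentile of all values, to that floor. Of the chondrocyte markers 6 of 8 were measured, and by its brightest probe set none was at the floor in any group. Their summed signal was 5639 to 6790 with both agents, 5100 to 6187 with IL-1β alone, 7227 to 7570 with glucosamine and 9387 to 10630 without treatment. The probe sets of Col2a1 differed. The brightest averaged 2812 with IL-1β alone and 3819 without treatment, and the second 131 and 292. The third averaged 3.76 and 106, and was below the floor on all 4 IL-1β arrays. The summed signal of 8 markers of macrophages and other leukocytes was 84.4 to 161 with both agents, 222 to 280.1 with IL-1β, 49.5 to 69.8 with glucosamine and 6.89 to 17.6 without treatment. Cd68 made up most of the sum with IL-1β, whereas Itgam was below the floor on all IL-1β arrays, and Tyrobp and Ptprc averaged 3.36 and 8.18 there. Of the endothelial markers 4 of 5 were measured, with a sum of 53.8 to 148 with both agents, 91.8 to 197 with IL-1β, 55.2 to 55.5 with glucosamine and 46.7 to 64.2 without treatment. Replicate d of both groups given IL-1β stood apart, at the low end of the scale and beyond it. The 1st percentile of its values was -36.8 with both agents and -31.0 with IL-1β alone, against -6.47 to -4.81 on the other 11 arrays. Its 75th percentile was 118.6 and 118.7, against 111.9 to 113.6, and 25372 and 25519 of its probe sets were above the floor, against 22130 to 23489.

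The promoters of 6 of the 7 genes are among those read from RefSeq (GRCr8 assembly), each as the 250 bases before an annotated transcription start. The 3 shown are those of the siderophore-capturing gene that rose with IL-1β (Lcn2), of the receptor that moved in both directions (Tfrc) and of the gene that led to the set (Slc40a1), so that the letters upstream of genes with unlike responses can be set side by side. Capitals mark matches to the motifs searched on both strands, which were chosen after the windows had been looked at: GGGA and TTCC with 2 bases between them (NF-kB), TTGCNNAA (C/EBP), ACGTG (hypoxia response) and TGACNNNGC (antioxidant response).
Lcn2, chr3:36081781-36082030, minus strand: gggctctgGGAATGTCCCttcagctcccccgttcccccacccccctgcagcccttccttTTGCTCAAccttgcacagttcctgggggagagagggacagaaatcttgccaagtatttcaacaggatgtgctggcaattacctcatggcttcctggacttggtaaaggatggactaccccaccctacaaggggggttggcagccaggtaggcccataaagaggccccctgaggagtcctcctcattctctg
Tfrc, chr11:81690319-81690568, minus strand: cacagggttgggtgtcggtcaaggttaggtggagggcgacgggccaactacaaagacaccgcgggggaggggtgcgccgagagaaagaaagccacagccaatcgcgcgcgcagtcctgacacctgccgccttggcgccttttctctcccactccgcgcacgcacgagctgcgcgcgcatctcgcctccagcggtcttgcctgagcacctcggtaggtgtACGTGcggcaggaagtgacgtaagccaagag
Slc40a1, chr9:55543461-55543710, minus strand: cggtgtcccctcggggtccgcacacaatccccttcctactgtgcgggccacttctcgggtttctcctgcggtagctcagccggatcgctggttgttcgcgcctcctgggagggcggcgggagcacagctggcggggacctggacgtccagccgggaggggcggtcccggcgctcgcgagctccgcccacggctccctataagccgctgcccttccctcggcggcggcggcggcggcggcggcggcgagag
The Lcn2 window held an NF-kB match on the strand opposite to the gene at bases -242 to -233 from the start, and a C/EBP match at -191 to -184. The NF-kB letters occur in 1.08% and the C/EBP letters in 9.22% of all 33469 promoter windows of this length. The other C/EBP match among the members lay in the Cp window, at -72 to -65. The Tfrc window held the hypoxia response letters at -31 to -27, as do 16.6% of all windows. The Slc40a1 window held none of the 4 motifs, and the antioxidant response letters, found in 10.1% of all windows, were in none of the 7 windows of the members. No overlap between matches was present. These matches describe letters and not bound sites.

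Ferroportin, the iron exporter encoded by Slc40a1, had the highest signal in untreated cultures and the lowest with IL-1β alone. Its brightest probe set, 1387130_at, gave 82.4, 90.2, 80.9 and 49.2 in cultures with both agents, 15.2, 12.7, 24.0 and -6.89 with IL-1β alone, 216 and 237 with glucosamine alone, and 299, 279 and 296 in untreated cultures. No group overlapped with another, and the order from high to low was untreated, glucosamine, both agents and IL-1β. One IL-1β array lay below the floor, so the signal was at least 22.8-fold lower with IL-1β than without treatment, a description of the values that led to the set. In bulk RNA of this kind, fewer cells that express a gene and less RNA per cell cannot be told apart. The leukocyte marker Cd68 stood at 188 ± 39.3 on the IL-1β arrays and at the floor on all untreated arrays (SD, n = 4 and 3). The other leukocyte markers averaged between 1.41 (Itgam) and 19.9 (Fcer1g) on the IL-1β arrays. The part of leukocytes in the Slc40a1 difference was not tested.

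The fold change of both agents over glucosamine alone uses no array of the contrast that chose ferroportin, and this comparison is the gene's only test. Its p-value still draws on the spread within all 4 groups, those of that contrast included. Slc40a1 averaged 75.7 ± 18.1 with both agents and 226 ± 14.97 with glucosamine (SD, n = 4 and 2), a 3.07-fold lower signal (log2 fold change -1.62, SE 0.43, 95% interval -2.57 to -0.67), which did not pass the threshold (adjusted p = 0.122). Leaving out replicate d of the IL-1β group, which is in neither arm but widens the shared spread, gave the same fold change with an adjusted p of 0.00979, and leaving out both d arrays gave -1.42 with an adjusted p of 0.0050. It also passed with the replicate letter as a block (-1.41, adjusted p = 0.0256). Most repeats did not make the call: 8 of 13 alternative settings and 12 of 13 fits without 1 array left it uncalled. The other 5 settings made it. The adjusted p among the repeats ran from 4.3e-06 to 0.772, so the call depended strongly on the setting. The other probe sets of Slc40a1, 1390412_at and 1376972_at, had log2 fold changes of -1.88 and -1.39, and neither passed (adjusted p = 0.187 and 0.130). Over IL-1β alone, the signal with both agents was at least 5.78-fold higher. That fold was at least 5.02 for the second probe set, on which the arrays overlapped, and the third gives no fold, since arrays of both groups were at the floor. With glucosamine alone the signal was 1.29-fold lower than in untreated cultures, and with both agents 3.95-fold lower. These comparisons share arrays with the one that chose the gene and were not tested.

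**Figure D1:**
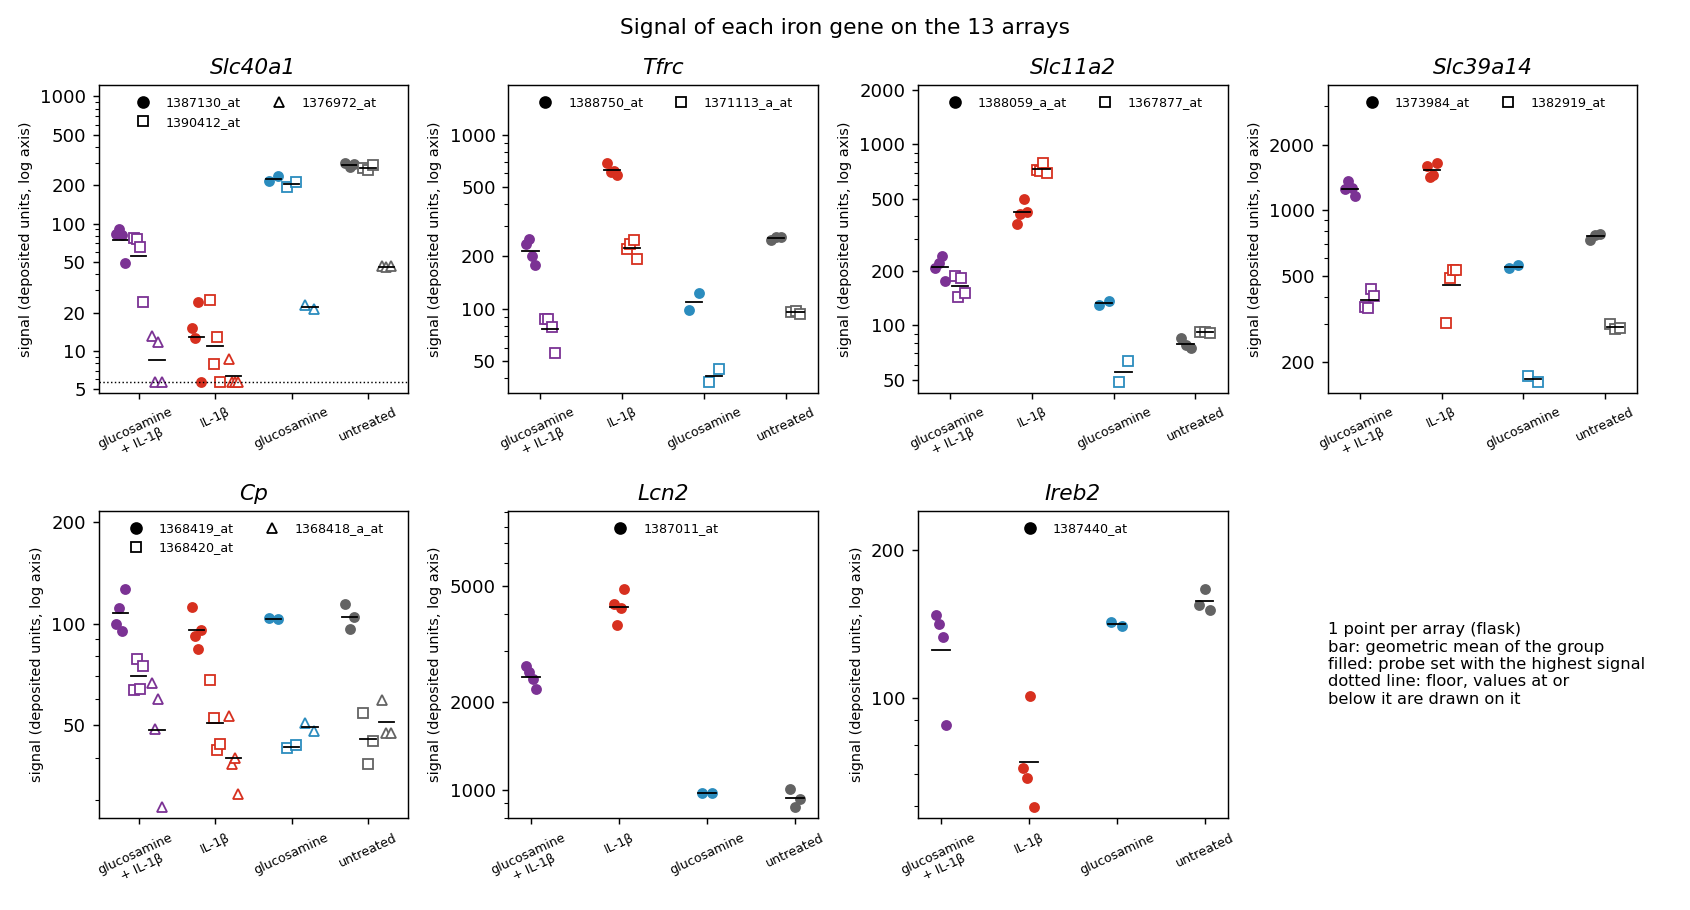
Signal of the 7 iron genes on each array, in deposited intensity units on a log axis, with 1 point per array, 1 symbol per probe set and a bar at the geometric mean of each group. The Slc40a1 signal on the brightest probe set lies between 12.7 and 24.0 on 3 IL-1β arrays and at the floor on the 4th, against 279 to 299 on the untreated arrays, whereas Lcn2 lies between 3666 and 4885 on the IL-1β arrays and between 868 and 1004 on the untreated arrays.

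The members that take up iron, Tfrc, Slc11a2 and Slc39a14, had their highest signals with IL-1β alone. Over untreated cultures, 4 of the 7 members (Tfrc, Slc11a2, Slc39a14 and Lcn2) were more than 2-fold higher with IL-1β and 2 (Slc40a1 and Ireb2) more than 2-fold lower, where 7.62% and 5.81% of all 29263 probe sets tested passed the same limits. Slc39a14 passed that limit only narrowly and not on its second probe set (1.56-fold). The median log2 fold change was 1.00 over the members and 0.10 over all probe sets. The members were chosen with these values known, so nothing is read from the counts.

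Transferrin receptor 1, encoded by Tfrc, brings transferrin with its iron into the cell. Its brightest probe set (1388750_at) gave 237, 251, 201 and 179.6 with both agents, 687, 612, 621 and 584 with IL-1β alone, 98.0 and 123 with glucosamine, and 250.2, 259.9 and 258 in untreated cultures. The glucosamine arrays were the lowest and the IL-1β arrays the highest, and cultures with both agents overlapped with untreated ones. Tfrc fell with glucosamine alone, to 110.4 ± 17.5 against 256 ± 5.22 in untreated cultures (log2 fold change -1.22, SE 0.14, adjusted p = 9.4e-05). With glucosamine in the medium, Tfrc rose with IL-1β 1.96-fold (log2 fold change 0.97, SE 0.13, adjusted p = 0.0021), next to a 2.44-fold higher signal with IL-1β in its absence. The fit to these groups alone did not make this call (adjusted p = 0.0972). On the log2 scale the IL-1β response over glucosamine was 75.6% of the one seen without it, from a lower starting signal. Whether these responses differ was not tested. Cultures with both agents stood at 217 ± 32.6 and did not differ from untreated cultures beyond the spread (log2 fold change -0.25, 95% interval -0.50 to 0.00, adjusted p = 0.158), and were lower than with IL-1β alone by 2.90-fold (adjusted p = 9.7e-07). The second probe set, 1371113_a_at, gave the same calls in these 4 tests, with log2 fold changes of 0.88, -1.21, -0.33 and -1.55 for both agents over glucosamine, glucosamine over untreated, both agents over untreated and both agents over IL-1β.

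Slc11a2 encodes the divalent metal transporter DMT1, which carries ferrous iron across the plasma membrane and out of endosomes. Probe set 1388059_a_at gave 207, 221, 241 and 176 with both agents, 364, 412, 497 and 422 with IL-1β, 130.3 and 136 with glucosamine, and 84.8, 77.4 and 74.9 in untreated cultures. On this probe set the order from low to high was untreated, glucosamine, both agents and IL-1β, with no overlap between any groups. The second probe set, 1367877_at, gave 187, 143, 183 and 151 with both agents, 726, 718, 788 and 699 with IL-1β, 48.8 and 63.2 with glucosamine, and 92.4, 91.3 and 90.5 in untreated cultures. There the glucosamine arrays, not the untreated ones, were the lowest. The probe sets thus disagreed on glucosamine alone: the signal rose on the first (log2 fold change 0.75, SE 0.14, adjusted p = 0.0031) and fell on the second (-0.72, SE 0.13, adjusted p = 0.0029). No direction is given for the gene in that comparison.

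On both Slc11a2 probe sets the signal with both agents was between those with IL-1β alone and with no treatment. It was lower than with IL-1β alone 2.01-fold on the first and 4.44-fold on the second (adjusted p = 3.4e-05 and 5.2e-08), and higher than in untreated cultures 2.66-fold and 1.80-fold (adjusted p = 3.8e-06 and 0.00013). Over glucosamine alone it rose 1.58-fold on the first probe set (log2 fold change 0.66, SE 0.13, adjusted p = 0.0269) and 2.97-fold on the second (1.57, SE 0.12, adjusted p = 4.8e-05). The call of the first is the less firm. Its adjusted p was 0.270 and 0.205 without glucosamine replicate a or b, 0.0627, 0.0705 and 0.0678 without replicate a, b or c of both agents, and 0.0505 without untreated replicate b. The signal with IL-1β alone was 5.34-fold and 8.01-fold that of untreated cultures.

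Slc39a14, also known as ZIP14, is a zinc and iron transporter of the plasma membrane. Its brightest probe set (1373984_at) gave 1251, 1355, 1262 and 1163 with both agents, 1595, 1415, 1448 and 1644 with IL-1β, 544 and 558 with glucosamine, and 728, 771 and 781 in untreated cultures. The groups did not overlap, and both groups given IL-1β lay above both groups without it. Slc39a14 rose 2.28-fold with IL-1β when glucosamine was present (log2 fold change 1.19, SE 0.08, adjusted p = 1e-05), next to a 2.00-fold higher signal in its absence. It fell with glucosamine alone, by 0.46 on the log2 scale (SE 0.08, adjusted p = 0.0024), to 551 ± 9.93 against 760.1 ± 27.9 in untreated cultures. Both agents gave less signal than IL-1β alone, 1257 ± 78.5 against 1525 ± 111 (1.21-fold lower, adjusted p = 0.0075), and more than no treatment (1.65-fold, adjusted p = 1.2e-05). On the second probe set, 1382919_at, the rise over glucosamine and the fall with glucosamine passed as well (log2 fold changes 1.21 and -0.80, adjusted p = 0.0055 and 0.0185). The comparisons of both agents with IL-1β and with untreated cultures did not pass there (adjusted p = 0.402 and 0.105). One IL-1β array, replicate a at 304, lay below the other 3 (489.6 to 532).

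**Figure D2:**
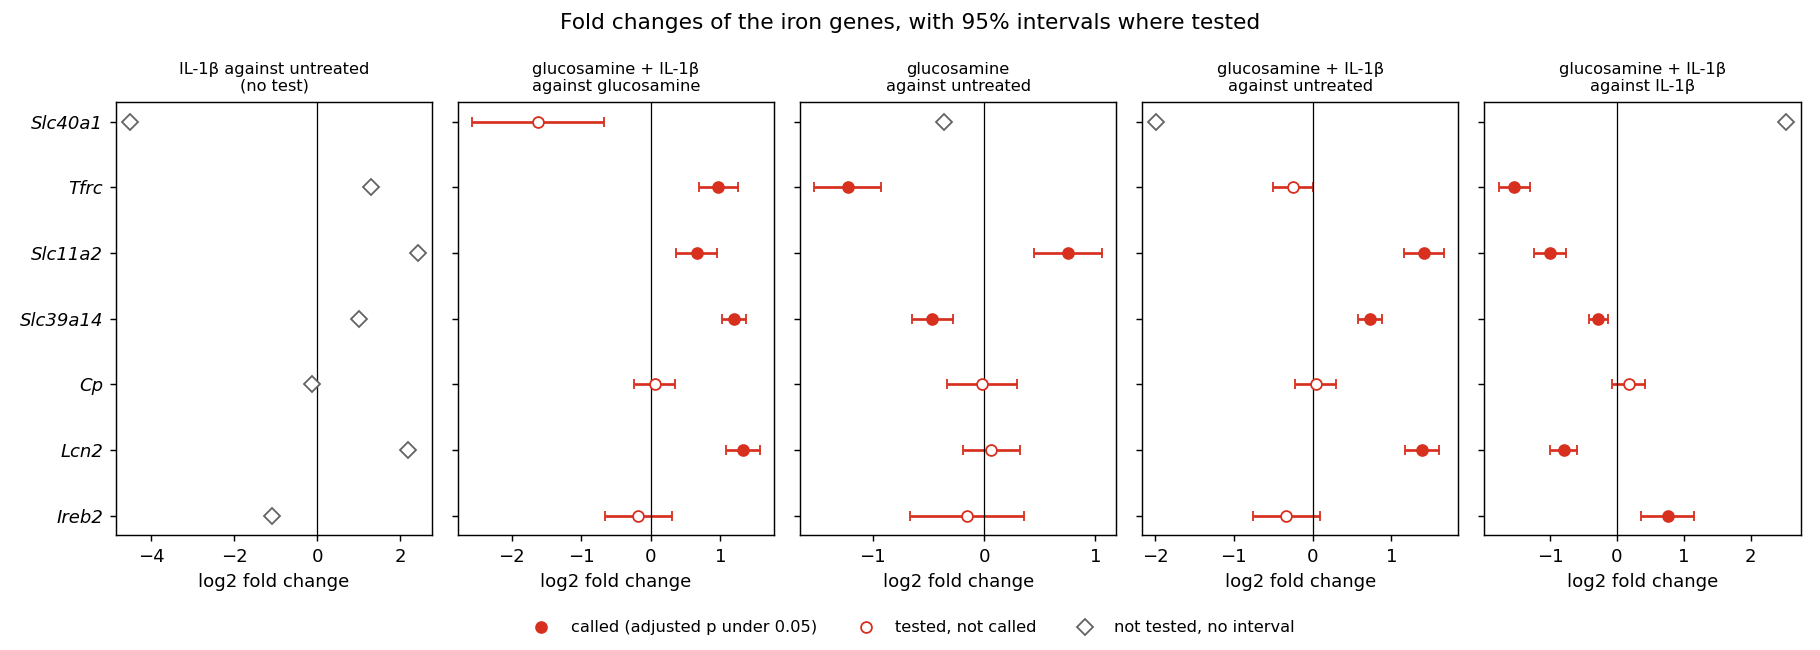
Log2 fold changes of the 7 iron genes (brightest probe set) in 5 comparisons, with 95% intervals from the fit where a test was made and grey diamonds without intervals where none was. Tfrc, Slc11a2, Slc39a14 and Lcn2 lie above 0 for both agents against glucosamine (0.66 to 1.32) and below 0 for both agents against IL-1β (-1.54 to -0.28).

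Ceruloplasmin, encoded by Cp, is a copper ferroxidase that oxidizes iron as it leaves the cell through ferroportin. Its brightest probe set (1368419_at) gave 100.1, 111, 95.2 and 127 with both agents, 112, 91.8, 84.3 and 95.6 with IL-1β, 104 and 103 with glucosamine, and 114, 96.8 and 105 in untreated cultures. All groups overlapped, and no test passed. The 95% interval of the log2 fold change was -0.24 to 0.35 for both agents over glucosamine, -0.33 to 0.30 for glucosamine over untreated, -0.23 to 0.30 for both agents over untreated, and -0.07 to 0.42 for both agents over IL-1β. On the second probe set, 1368420_at, the signal with both agents was higher than in untreated cultures, 70.3 ± 7.55 against 46.0 ± 8.02 (log2 fold change 0.62, SE 0.18, adjusted p = 0.0285). On the third, 1368418_a_at, no test passed, and group means lay between 40.9 and 51.4.

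Lipocalin 2, encoded by Lcn2, is secreted and sequesters iron bound to bacterial siderophores. It is read by 1 probe set (1387011_at), which gave 2646, 2535, 2398 and 2214 with both agents, 4346, 3666, 4192 and 4885 with IL-1β, 974 and 977 with glucosamine, and 1004, 868 and 930.0 in untreated cultures. The IL-1β arrays were the highest, those with both agents came next, and the glucosamine and untreated arrays overlapped. On top of glucosamine, IL-1β raised Lcn2 2.50-fold (log2 fold change 1.32, SE 0.11, adjusted p = 6.8e-05), next to a 4.56-fold higher signal in its absence. On the log2 scale this was 60.5% of the response seen without glucosamine. That share was 27.2% and 52.3% on the Slc11a2 probe sets, and 118.6% and 189.6% on those of Slc39a14. Whether the responses with and without glucosamine differ was not tested for the members. Lcn2 was 1.74-fold lower with both agents than with IL-1β alone (adjusted p = 5.1e-05) and 2.62-fold higher than in untreated cultures (adjusted p = 1e-06). Glucosamine alone gave no call (log2 fold change 0.07, 95% interval -0.19 to 0.32). Neutrophils, a main source of lipocalin 2, were represented by 1 measured marker of 6, Camp, at 43.2 to 74.8 on the IL-1β arrays and below the floor on all others, and its part in the Lcn2 signal was not tested.

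Ireb2 encodes iron regulatory protein 2, which binds iron-responsive elements and is degraded when iron is plentiful. Its probe set (1387440_at) gave 147, 142, 133 and 87.8 with both agents, 71.8, 68.7, 101.0 and 59.7 with IL-1β, 143.0 and 140.2 with glucosamine, and 155, 167 and 151 in untreated cultures. Replicate d was the lowest array of both groups given IL-1β, and these groups overlapped through it. Ireb2 was higher with both agents than with IL-1β alone, 127 ± 27.1 against 75.3 ± 17.9 (log2 fold change 0.76, SE 0.18, adjusted p = 0.0090). The methods' own one-way test on linear values did not make this call. In the presence of glucosamine, the signal with and without IL-1β did not differ beyond the spread (log2 fold change -0.18, 95% interval -0.66 to 0.30, adjusted p = 0.822), and it was 2.13-fold lower with IL-1β than without treatment in its absence. Glucosamine alone and both agents against untreated cultures gave no call (log2 fold changes -0.15 and -0.33, adjusted p = 0.959 and 0.282).

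Over glucosamine alone, 4 of the 7 members rose with IL-1β (Tfrc, Slc11a2, Slc39a14 and Lcn2) and none fell by this test, where 1.79% of all probe sets passed, 0.933% upward and 0.861% downward. The arrays of 5 members did not overlap between these groups, as was so for 18.5% of all probe sets. The 4 that rose are those more than 2-fold higher with IL-1β over untreated cultures, values known when the members were chosen. Nothing is read from these counts. The other comparisons tested 6 members. Each such comparison shares the IL-1β or the untreated arrays with the contrast whose values were known when the members were chosen. Nothing is therefore read from the counts that follow. Glucosamine alone raised 1 (Slc11a2, on its first probe set) and lowered 2 (Tfrc and Slc39a14), where 14.7% of all probe sets were called, 7.14% upward and 7.56% downward. Both agents raised 3 over untreated cultures (Slc11a2, Slc39a14 and Lcn2) and lowered none by this test, where 23.9% of all probe sets were called, 11.5% upward and 12.4% downward. Against IL-1β alone, cultures with both agents had lower signals for 4 (Tfrc, Slc11a2, Slc39a14 and Lcn2) and a higher one for Ireb2, where 23.3% of all probe sets were called, 11.4% lower and 11.9% higher. The arrays of 5 of the 7 members did not overlap for glucosamine against untreated cultures, for both agents against untreated cultures and for both agents against IL-1β, as was so for 49%, 36.5% and 20.8% of all probe sets, and 6 of 7 did not overlap for IL-1β against untreated cultures, against 35.8% of all probe sets.

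Across the 13 arrays the signals of the members moved in opposite blocks. The Pearson correlation of the log2 signals was 0.95 between Lcn2 and Slc11a2, 0.95 between Lcn2 and Slc39a14, 0.94 between Slc40a1 and Ireb2, and -0.94 between Slc40a1 and Lcn2, whereas Cp lay between -0.42 and 0.29 with the others. The arrays share the 4 treatments, so these values mainly restate the group differences and carry no test. The 5 genes with the pattern most like that of Slc40a1, among 19946 probe sets, were Msrb3 (r = 0.99), Kdm5b (0.99), Edil3 (0.98), Aldh1l2 (0.98) and Ghr (0.98). The signal of Msrb3, for example, was 349 ± 23.1 with both agents, 247 ± 34.6 with IL-1β, 463 ± 1.81 with glucosamine and 510.1 ± 20.4 without treatment. For Lcn2 they were Aldh1a3, Egln3, Slc43a2 and Zc3h12a (0.99 each) and Tnfrsf9 (0.98). Egln3, a prolyl hydroxylase whose enzyme family itself uses iron, stood at 196 ± 16.6 with both agents, 866 ± 77.9 with IL-1β, 32.6 ± 0.55 with glucosamine and 17.9 ± 2.46 without treatment.

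Beyond the members, a list of 51 other genes of iron and heme handling was examined, of which 42 had a probe set of their own. The light chain of ferritin (Ftl1) and transferrin (Tf) were among those without one. With IL-1β alone, 12 of the 42 rose and 12 fell against untreated cultures, together 57.1% of the list, where 24.1% of all probe sets were called, 11.1% upward and 13% downward. In all such counts a gene enters by its brightest probe set, whereas the share covers every tested probe set, dim ones and those without a gene included. The list and the share are therefore not like for like. Of 12 genes of uptake, 6 rose (Steap1, Steap2, Steap3, Steap4, Slc39a8 and Slc48a1) and 3 fell (Scara5, Slc46a1 and Slc22a17). Steap2, Steap3 and Steap4 are metalloreductases, Slc39a8 is a close relative of Slc39a14, and Scara5 is a ferritin receptor. Slc39a8 was at 591, 517, 588 and 482 with IL-1β and at 157, 149.7 and 154 in untreated cultures (3.53-fold, adjusted p = 2.2e-08). Scara5 was at 173, 156, 184 and 127 with IL-1β and at 783, 736 and 778 in untreated cultures (4.82-fold lower, adjusted p = 1.3e-07). In both genes the arrays of the groups lay far apart.

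Of 13 genes of mitochondrial iron and heme synthesis, 1 rose with IL-1β alone and 6 fell. The riser was Slc25a37, mitoferrin 1, which imports iron into mitochondria. It stood at 969, 995, 866 and 1264 with IL-1β against 72.6, 81.0 and 81.1 in untreated cultures, a 12.98-fold difference (log2 fold change 3.70, SE 0.19, adjusted p = 6.3e-08). Slc25a37 is best known from red cell precursors. The summed signal of 5 erythroid markers was 46.6 to 154.0 with both agents, 55.9 to 157 with IL-1β, 40.4 to 43.7 with glucosamine and 36.3 to 42.5 without treatment, with Epb42 at the floor in every group, and its part in this result was not tested. The 6 that fell were the iron-sulfur cluster factors Isca1 and Glrx5 and the heme synthesis enzymes Alad, Urod, Ppox and Fech, of which Alad had a log2 fold change of -1.10 (SE 0.30, adjusted p = 0.0197) and Isca1, Glrx5, Urod, Ppox and Fech fell by 0.47, 0.39, 0.83, 0.71 and 0.47 on the log2 scale. Alad was at 23.6 on IL-1β replicate d and at 60.9 to 68.4 on the other IL-1β arrays, and without both d arrays its log2 fold change was -0.74, next to -0.86 for Urod.

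Among genes of regulation, Fbxl5, the ubiquitin ligase adaptor that removes Ireb2 protein when iron is plentiful, rose 2.24-fold with IL-1β alone, to 796 ± 97.4 against 353 ± 6.51 in untreated cultures (adjusted p = 1e-06). Aco1, iron regulatory protein 1, fell 1.26-fold (adjusted p = 0.0210), and Hfe, which acts on hepcidin signaling in the liver, fell 2.42-fold (adjusted p = 0.0055). Hamp, which encodes hepcidin, the hormone that removes ferroportin from the membrane, stayed low and variable, at 25.3 ± 14.9 with both agents, 24.9 ± 20.9 with IL-1β, 11.2 ± 3.68 with glucosamine and 14.0 ± 1.80 in untreated cultures, with no call in any comparison. Its highest array in both groups given IL-1β was replicate d. Ncoa4, which delivers ferritin for breakdown, fell 1.19-fold with IL-1β (adjusted p = 0.0283). Heph, a membrane ferroxidase, averaged between 1.56 and 7.49 in the 4 groups and gave no call.

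With glucosamine alone, 10 of the 42 genes rose and 4 fell against untreated cultures, 33.3% of the list against 14.7% of all probe sets. Hmox1, heme oxygenase 1, which frees iron from heme, rose most, to 2341 and 2518 against 874, 879 and 916 in untreated cultures (2.73-fold, adjusted p = 1.1e-05), and Hmox2 rose 1.65-fold (adjusted p = 0.0054). Next came Slc46a1, a transporter of folate and heme (2.05-fold, adjusted p = 0.00024), and Slc25a37 (2.03-fold, adjusted p = 0.0107). Slc39a8 rose 1.69-fold (adjusted p = 0.00029) and Steap3 1.54-fold (adjusted p = 0.0143). The 4 that fell were Scara5, 2.56-fold (adjusted p = 0.00010), Steap4, 2.27-fold (adjusted p = 0.00056), Steap2, 1.45-fold (adjusted p = 0.0029), and Slc22a17, a lipocalin 2 receptor, 1.40-fold (adjusted p = 0.0169).

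In the presence of glucosamine, only Steap4 and Slc25a37 of the 42 genes passed the test for IL-1β, both upward, 4.76% of the list against 1.79% of all probe sets. Steap4 stood at 118, 122, 114 and 136 with both agents and at 17.5 and 23.0 with glucosamine, a 6.10-fold rise (log2 fold change 2.61, SE 0.16, adjusted p = 6.3e-06). Slc25a37 stood at 285, 264, 306 and 501 with both agents and at 160.2 and 157 with glucosamine, a 2.07-fold rise (log2 fold change 1.05, SE 0.22, adjusted p = 0.0325). The groups did not overlap in either gene, and replicate d was the highest array with both agents in both. The count of 2 was 1 without either glucosamine array, without replicate c of both agents, without IL-1β replicate b or without any 1 of the 3 untreated arrays, and 5 without both d arrays (4 upward and 1 downward). Steap4 was also higher with both agents, at 123 ± 9.81, than with IL-1β alone, at 91.1 ± 11.9 (adjusted p = 0.0322), a call that was lost without both d arrays (adjusted p = 0.0639).

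Against IL-1β alone, cultures with both agents had higher signals for 14 of the 42 genes and lower ones for 8, 52.4% of the list against 23.3% of all probe sets. The largest rises were in Slc46a1 (2.76-fold, adjusted p = 1.1e-06), Alad (2.27-fold, adjusted p = 0.0091) and Nfs1, the cysteine desulfurase of iron-sulfur cluster assembly (1.77-fold, adjusted p = 0.00021). By fitted value, the largest falls were in haptoglobin (Hp), Slc25a37 (3.09-fold, adjusted p = 4.1e-05) and Steap2 (2.00-fold, adjusted p = 2.1e-06). Hp, which binds free hemoglobin, was below the floor on all 4 arrays with both agents and at 87.3, 54.6, 59.5 and -118 with IL-1β, and passed the test (adjusted p = 0.0250). With IL-1β replicate d below the floor as well, this comparison gives no fold. Without both d arrays Hp was at least 11.5-fold lower (adjusted p = 0.00030). Of the 13 genes of mitochondrial iron and heme synthesis, 7 were higher with both agents than with IL-1β alone (Nfs1, Glrx5, Alad, Urod, Cpox, Ppox and Fech) and 1, Slc25a37, was lower.

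Against untreated cultures, both agents together raised 14 of the 42 genes and lowered 5, 45.2% of the list against 23.9% of all probe sets. The largest rises were in Slc25a37 (4.20-fold, adjusted p = 9.7e-06), Hmox1 (2.90-fold, adjusted p = 6.8e-07) and Steap4 (2.69-fold, adjusted p = 1.6e-05). The largest falls were in Scara5 (3.84-fold, adjusted p = 6.8e-07), Hfe (2.53-fold, adjusted p = 0.0041) and Uros, an enzyme of heme synthesis (2.19-fold, adjusted p = 0.0153). Aco1 and Ncoa4 gave no call (log2 fold changes 0.01 and -0.07, SE 0.09 and 0.07).

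**Figure D3:**
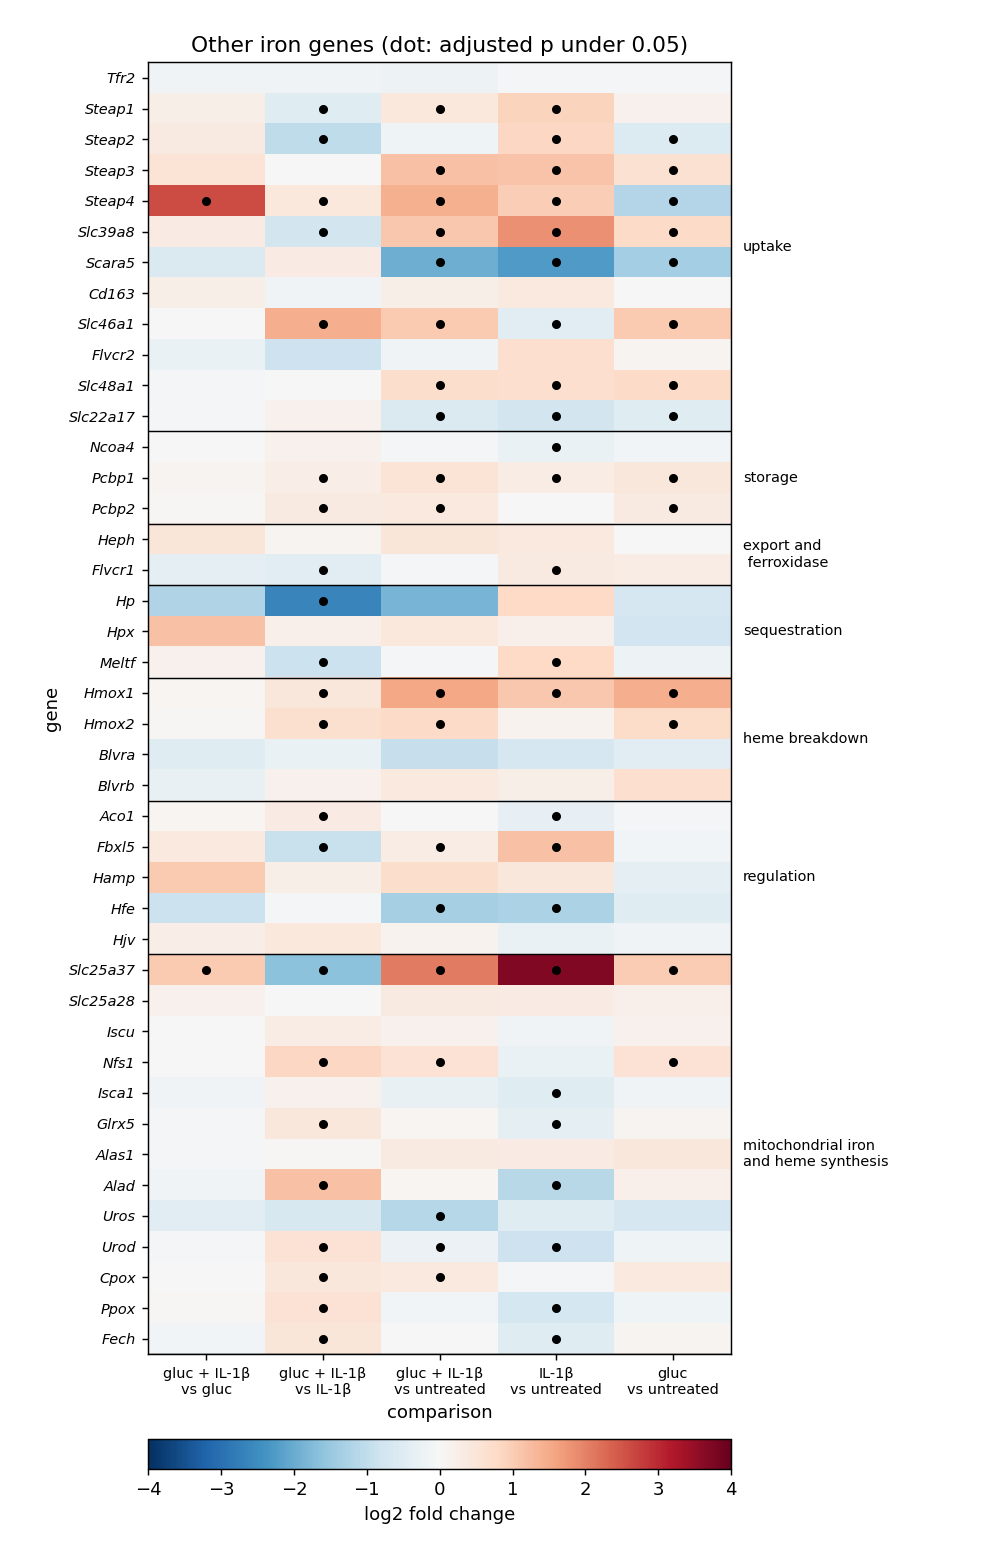
Log2 fold changes of 42 other iron genes, 1 row per gene and grouped by role, in 5 comparisons given by column, with blue below 0, red above 0 and a dot where the adjusted p was under 0.05. The column for both agents against glucosamine holds 2 dots (Steap4 and Slc25a37), the column for IL-1β against untreated cultures 24.

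The response to IL-1β itself differed with glucosamine present for 11 of the 42 genes (interaction of the fit, 26.2% of the list against 8.54% of all probe sets). Of these, 4 had a positive and 7 a negative difference of log2 fold changes, as had 3.98% and 4.57% of all probe sets. The largest negative one was that of Slc25a37 (-2.65, SE 0.29, adjusted p = 0.00014), followed by Slc39a8 (-1.48, SE 0.13, adjusted p = 1.9e-05). The largest positive ones were those of Scara5 (1.68, SE 0.20, adjusted p = 0.00020) and Steap4 (1.61, SE 0.21, adjusted p = 0.00052). Scara5 stood at 208, 224, 208 and 163 with both agents and at 292 and 307 with glucosamine alone, a difference that did not pass (log2 fold change -0.59, SE 0.15, adjusted p = 0.0876). These arrays did not overlap, and the fall passed without both d arrays (-0.49, SE 0.08, adjusted p = 0.0060).

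**Figure D4:**
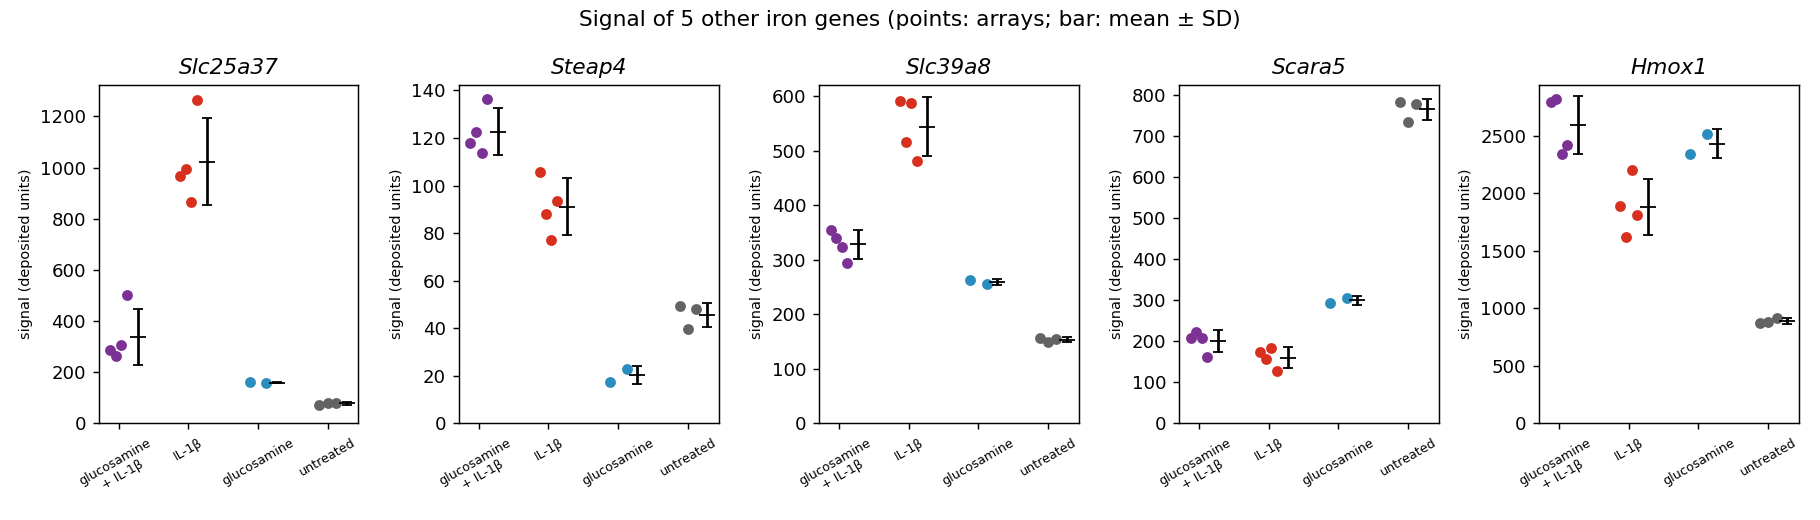
Signal of 5 other iron genes in deposited intensity units, with 1 point per array, and the mean ± SD of each group to the right of its points. Slc25a37 lies between 866 and 1264 with IL-1β alone and between 72.6 and 81.1 without treatment, and Hmox1 lies between 874 and 916 in untreated cultures and between 1620.5 and 2818 in the 3 treated groups.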

How the data were processed

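According to the methods, the authors made cell files from the scans with Affymetrix Microarray Suite version 5, and Probe Profiler turned these intensities into 1 estimate per probe set, scaled to a global target of 100, before the intensity values were deposited. The labels name MAS5. Tested on the table, the deposited intensities were linear and partly below 0, with array means of 127 to 145 and 75th percentiles of 112 to 119, so no scaling was added. Both d arrays had the highest 75th percentiles. Whether all corrections stated were applied cannot be told from the values. No columns of the authors' own comparisons were used.

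Of the probe sets, 57 controls were left out and 31042 kept. Values were raised to a floor of 5.71, the 25th percentile, and taken to log2. A total of 29263 probe sets were tested, and 1779 at the floor on all arrays were not. The 4 groups, taken from the sample titles, entered 1 linear model in limma (version 3.58.1, R 4.3.3), by lmFit and eBayes with the prior variance as a trend of signal and 9 residual degrees of freedom. Tests were 2-sided, p-values were adjusted after Benjamini and Hochberg over all tested probe sets, and 0.05 was the threshold. The fit was tested on simulated data. Of the probe sets, 20826 are annotated to 1 gene, 436 to several and 9780 to none, and a gene is represented by its probe set with the highest mean log2 signal. A fold is written as at least where an array of the lower group was at the floor and none of the higher group was. The number of arrays limits the precision.

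The members, lists, motifs and tests were chosen with earlier results of these data known. Named were all members, a few other iron genes chosen for their role (Ncoa4, Aco1, Fbxl5, Hmox1, Steap3, Steap4, Slc39a8, Heph, Scara5 and Hamp), the 3 largest rises and falls called in each comparison, and the 5 genes most like Slc40a1 and Lcn2 by Pearson correlation. Genes named beside a count or among the interactions were named for that count. Motifs were searched in RefSeq promoter windows (GRCr8). Alternatives were a floor at the 10th or at the 40th percentile, an offset of 32, quantile and 75th percentile scaling, no filter or a stricter filter, no variance trend, fits to 2 groups alone, the replicate letter as a block, arrays left out, a second probe set, and the methods' own one-way test on linear values (P under 1e-04, then Tukey at 0.05).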

Additional observations from a re-analysis of the deposited data

Results flagged for a closer look

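The response to IL-1β differed with and without glucosamine in 11 of the 42 other iron genes, by the interaction of the limma fit (adjusted p under 0.05 in each). The values are the log2 response to IL-1β over glucosamine minus that over untreated cultures, and the members were not tested for this. A positive difference was found for the ferritin receptor Scara5 (1.68), the ferrireductase Steap4 (1.61), the heme synthesis enzyme Urod (0.74) and the lipocalin 2 receptor Slc22a17 (0.66). Scara5, Urod and Slc22a17 fell with IL-1β alone and gave no call over glucosamine, whereas Steap4 rose in both settings. The fall of Scara5 over glucosamine was called without both d arrays (adjusted p = 0.0060). A negative difference was found for Slc25a37 (-2.65), Slc39a8 (-1.48), Hmox1 (-0.98), Fbxl5 (-0.77), the heme transporter Slc48a1 (-0.74), the heme exporter Flvcr1 (-0.73) and Steap2 (-0.46), all of which rose with IL-1β alone, and of which only Slc25a37 also passed over glucosamine. Slc39a8 and Fbxl5 passed there as well without both d arrays (log2 fold changes 0.39 and 0.44, adjusted p = 0.0160 and 0.0271). Hmox1 stood at 2592 ± 250 with both agents, 1879 ± 242 with IL-1β, 2429 ± 125 with glucosamine and 890.1 ± 23.0 in untreated cultures, and the glucosamine arrays lay above the IL-1β arrays. In none of the 14 probe sets of the members did a single array stand apart from the rest of its group by Dixon's test, in the groups of 4.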

How the results depend on the processing

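Of 650 repeats of tested member results, 626 kept their direction and call, 16 lost and 7 gained the call, and 1 reversed. Slc11a2 fell with glucosamine on its second probe set (-0.72) and rose on its first. For both agents against glucosamine, the fit to these groups alone called 2 members (4 in all groups together), without Tfrc and Slc11a2 (adjusted p = 0.0972 and 0.148). Ireb2 for both agents against IL-1β was lost by the methods' own test only. For both agents against glucosamine, 2 other iron genes were called in the report. They were 4 after quantile normalization, 1 with no filter, 1 with no variance trend, 1 in the fit to these groups alone and 5 without both replicate d arrays. The methods' own test called 1 instead of 3 members for glucosamine against untreated cultures, and of the other iron genes 8 instead of 14 there, 9 instead of 19 for both agents against untreated, 12 instead of 22 for both agents against IL-1β and 11 instead of 24 for IL-1β against untreated cultures. The fit to glucosamine and untreated arrays alone called 22 other iron genes, and 19 instead of 11 interactions passed without both d arrays. Slc40a1 over glucosamine passed with a floor at the 40th percentile (adjusted p = 0.0062) and with an offset of 32 (log2 fold change -1.28, adjusted p = 0.0045). Its log2 fold change with IL-1β over untreated cultures was -5.23 with the 10th percentile as the floor and -2.87 with the offset. Those changes follow from the floor. For the rest the cause was not tested.

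With single arrays left out, members called ranged from 3 to 5 for both agents against glucosamine and stayed at 3, 3 and 5 for glucosamine against untreated, both agents against untreated and both agents against IL-1β. Other iron genes called ranged from 1 to 3 (both agents against glucosamine), 10 to 17 (glucosamine against untreated), 14 to 24 (both agents against untreated), 19 to 24 (both agents against IL-1β), 16 to 27 (IL-1β against untreated) and 8 to 15 (interactions).

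Between both agents and IL-1β, all 4 same-letter pairs of arrays deviated together from their group means (r = 0.38 to 0.80). Replicate d of one group against other letters gave -0.67 to -0.47, and different letters without d 0.33 to 0.56, so the d arrays went together while a, b and c were not told apart. In no other pair of groups were all same-letter pairs above 0.1 (-0.17 to 0.18). With the letter as a block, 5 other iron genes instead of 2 and 5 members instead of 4 were called for both agents against glucosamine, Slc40a1 among them (log2 fold change -1.41, adjusted p = 0.0256). It changed no other call of a member.

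For IL-1β over untreated cultures the median of all log2 fold changes was 0.10 as deposited and 0.01 after quantile scaling, and for both agents over untreated cultures 0.13 and 0.04, to which the members' values are relative. Glucosamine alone rests on 2 arrays, and signals near the floor, as of Slc40a1 with IL-1β, give only bounds.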
